A study of Homo sapiens with 6 samples.

Results

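Laminins and hemidesmosomes fasten epithelial cells to the basement membrane, and 9 genes of this attachment system were followed out of 62700 genes in the count table. The genes were taken by symbol: the laminin chain genes LAMA3, LAMB3, LAMA5, LAMB1 and LAMC1, the transmembrane collagen gene COL17A1, the integrin subunit genes ITGA6 and ITGB4, and PLEC, which encodes the linker protein plectin. All 9 were found and all 9 passed the filter on low counts. RNA was sequenced from SAS cells, a tumour cell line established from a tongue carcinoma of squamous type. The 3 control libraries came from cells labelled wild type that received a control siRNA (siC), and the 3 knockdown libraries from cells that received an siRNA against IGF2BP1 (siIGF2BP1). Both groups are the same cell line, so a single tumour line stands for its tissue here. The study asked whether IGF2BP1, an mRNA-binding protein known to protect its targets from decay, counters the shut-off of the coactivator YAP1 by the Hippo pathway. The siRNA sequences, the time after transfection and whether replicates were separate cultures are not given in the labels, so a p-value here reflects library-to-library spread that may be purely technical.

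A laminin is a cross-shaped trimer of an alpha, a beta and a gamma chain that is secreted into the basement membrane. The trimer that holds the LAMA3 and LAMB3 products is the main ligand of the hemidesmosome, and the trimers with the LAMA5 product and LAMC1 product are widespread in epithelial and vascular basement membranes. In a hemidesmosome the integrin made of the ITGA6 and ITGB4 products binds that laminin from the cell side, the COL17A1 product spans the membrane beside it, and plectin ties the cytoplasmic tail of the ITGB4 product to keratin filaments. Loss of any of several of these genes causes inherited skin blistering, and squamous carcinoma cells often keep making the laminin chains.

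The sequence before the start sites is shown for LAMA3 and LAMB3, which pair in the hemidesmosomal laminin, and for LAMA5 and COL17A1, the called genes with the most and the least GC in this window. RefSeq windows of 250 bases upstream (GRCh38.p14) were matched for 7 of the 9 genes, 10 windows in all, and ITGB4 and PLEC had none. AP-1, the dimer of FOS and JUN family factors, binds letters of the form TGANTCA, which read the same on both strands. These letters occurred in 2 of the 10 windows and in 6.57% of all 35116 windows. The window of LAMA3 held them in 2 places, shown with 10 bases on either side (plus strand, chr18:23872885-23872911 and chr18:23872941-23872967). Both places lie inside an exon of another annotated LAMA3 transcript. Of 3 LAMB3 windows the third held them once, 67 bases before its start (minus strand, run shown chr1:209651395-209651624). The windows of LAMA5 (minus strand, chr20:62367313-62367562) and COL17A1 (minus strand, run shown chr10:104085958-104086130) held none. Bases inside annotated exons are left out of the 3 longer runs, and capitals mark the AP-1 letters, read 5′ to 3′.
LAMA3 first place: tggcacaggcTGACTCAtgtgtgaagt
LAMA3 second place: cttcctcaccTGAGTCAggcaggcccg
LAMB3: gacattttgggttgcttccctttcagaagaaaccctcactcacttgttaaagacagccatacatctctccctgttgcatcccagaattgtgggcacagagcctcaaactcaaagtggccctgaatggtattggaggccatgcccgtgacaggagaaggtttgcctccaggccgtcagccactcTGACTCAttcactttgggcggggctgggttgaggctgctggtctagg
LAMA5: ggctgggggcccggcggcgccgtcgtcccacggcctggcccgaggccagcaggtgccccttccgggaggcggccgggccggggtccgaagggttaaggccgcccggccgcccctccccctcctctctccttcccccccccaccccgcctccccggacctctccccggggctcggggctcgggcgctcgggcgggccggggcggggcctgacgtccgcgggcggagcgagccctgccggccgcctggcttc
COL17A1: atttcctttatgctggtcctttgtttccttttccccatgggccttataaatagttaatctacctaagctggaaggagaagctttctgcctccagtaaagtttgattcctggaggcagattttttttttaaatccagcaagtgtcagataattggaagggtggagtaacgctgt
The LAMA5 window has a GC content of 82.8% and 5 matches to the SP1 letters GGGCGG on either strand, letters found in 42.6% of all windows. The COL17A1 window has a GC content of 40.4% and no such match, and the median over all windows is 58.0%. The TEAD letters GGAATG, sought on both strands because TEAD factors carry YAP1 to DNA, occurred in 0 of the 10 windows and in 11.9% of all windows. A match or its absence describes these letters in this window and says nothing of binding.

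IGF2BP1 itself gave 185, 223 and 292 reads in controls 1 to 3 and 29, 25 and 21 reads in knockdowns 1 to 3. Every knockdown library was below every control library, as the labels would have it. On CPM, counts scaled to library size with TMM factors, IGF2BP1 fell from 9.64 ± 1.55 to 1.16 ± 0.399 (mean ± SD, n = 3 each), a log2 fold change of -3.07 (edgeR quasi-likelihood test, adjusted p = 4.56e-06). Library totals lay between 17918496 reads (knockdown 1) and 26675064 reads (control 3), so 3 reads corresponded to between 0.1125 and 0.1674 CPM. All 12 genes of an epithelial marker list, squamous and simple, were tested, and 5 of them fell. Of all 14649 tested genes, 6.66% were called lower and 12.9% in either direction, at an adjusted p under 0.05. The summed level of the 12 was 23401 to 25377 CPM in control and 12837 to 13778 CPM in knockdown libraries. KRT8, a keratin of simple epithelia, had the highest mean of the list over all 6 libraries (6711 CPM). What part the shift of the sum has in the results below was not tested. Fibroblast markers summed to at most 9.29 CPM in any library and COL3A1, DCN, LUM, THY1 and POSTN were at 0 reads, while 1 of the 3 tested rose. Endothelial markers summed to at most 14.6 CPM and melanocyte markers to at most 5.72 CPM. Leukocyte markers summed to 17.4 to 19.1 CPM in control and 12.5 to 15.1 CPM in knockdown libraries, mostly CD14, and PTPRC was at 0. Schwann cell and nerve markers summed to 75.1 to 78.6 CPM in control and 63.2 to 93.0 CPM in knockdown libraries, mostly NGFR. Of these, 3 were tested and 1 fell, and S100B was at 0.

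Of the 9 genes, 4 fell after IGF2BP1 knockdown at an adjusted p under 0.05: LAMB3, LAMA5, LAMC1 and COL17A1. None rose. Among all 14649 tested genes 12.9% were called in either direction and 6.66% were called lower. The fitted log2 fold change was negative for all 9 genes, with a median of -0.64, while 46.7% of all tested genes were negative and their median was 0.03. With RLE scaling and with no scaling factor all 9 stayed negative and the same 4 were called. In 4 of the 9 genes all knockdown libraries lay below all control libraries, against 15.1% of all tested genes. In RNA from bulk cultures, fewer cells of a kind and less RNA per cell cannot be told apart.

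**Figure D1:**
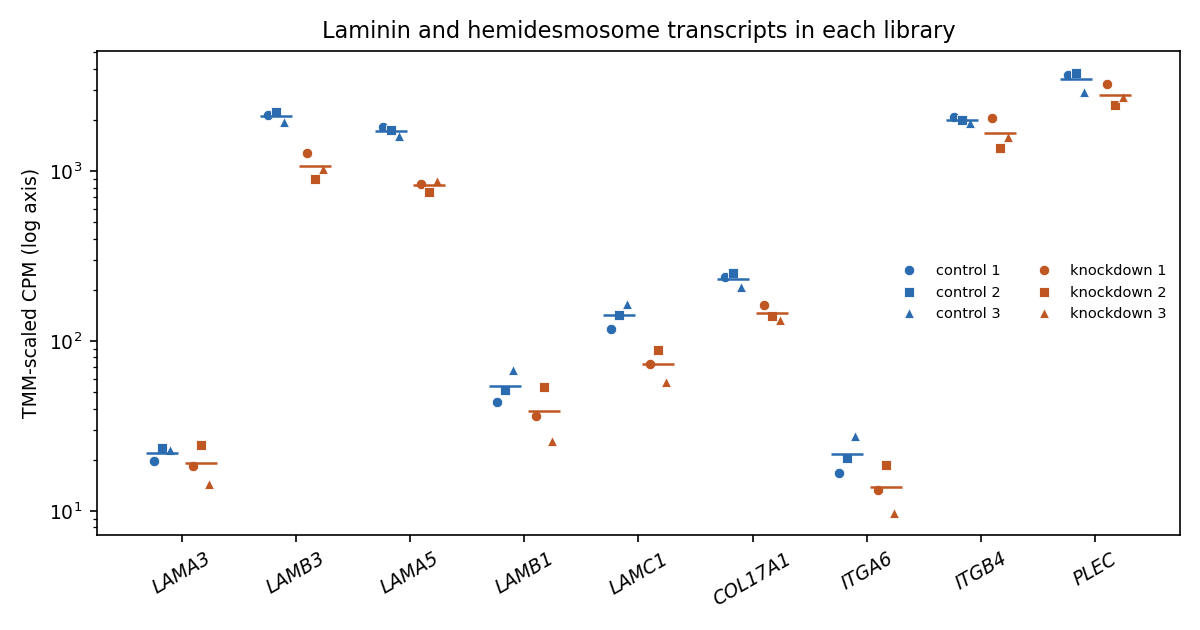
TMM-scaled CPM (log axis) of the 9 genes in each library, with control libraries in blue, knockdown libraries in orange, symbols for the replicate number and bars for the group means (n = 3). The groups are apart for LAMB3, LAMA5, LAMC1 and COL17A1 and overlap for the other 5.

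The alpha chains set which receptors a laminin can bind. LAMA5 (ENSG00000130702; GRCh38 chromosome 20, 62307955 to 62367312, minus strand) encodes the alpha chain of the widespread epithelial and vascular laminins. Its level was 1822, 1736 and 1605 CPM in controls 1 to 3 and 842, 758 and 875 CPM in knockdowns 1 to 3. The highest knockdown library was well under the lowest control library. The mean fell to 47.9% of control, from 1721 ± 110 to 825 ± 60.2 CPM, a log2 fold change of -1.06 (SE 0.102, 95% interval -1.28 to -0.84, adjusted p = 3.73e-06). Of the exon bases of LAMA5, 2.53% also lie in the opposite-strand genes ADRM1 and LAMA5-AS1. LAMA5-AS1 itself held 31, 50 and 64 control and 17, 28 and 24 knockdown reads, against at least 15310 reads of LAMA5 in each library. The antisense gene was not called (log2 fold change -0.95, adjusted p = 0.154).

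LAMA3 (ENSG00000053747; GRCh38 chromosome 18, 23689443 to 23956222, plus strand) encodes the alpha chain of the hemidesmosomal laminin. Its level was 19.6, 23.3 and 22.8 CPM in controls 1 to 3 and 18.4, 24.4 and 14.4 CPM in knockdowns 1 to 3. Knockdown 2 was the highest of all 6 libraries and knockdown 3 the lowest. The log2 fold change was -0.20 (SE 0.186, 95% interval -0.60 to 0.19, adjusted p = 0.556), so LAMA3 did not pass the test. Without knockdown 2 this value was -0.45 and without knockdown 3 it was -0.04, neither called.

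LAMB3 (ENSG00000196878; GRCh38 chromosome 1, 209614870 to 209652466, minus strand) encodes the beta chain of the hemidesmosomal laminin and was the laminin transcript with the highest TPM in these cells. It gave 2153, 2224 and 1954 CPM in controls 1 to 3 and 1281, 905 and 1025 CPM in knockdowns 1 to 3. Knockdown 1 was the highest of its group and still far below each control. Expression fell to 50.7% of control, from 2110 ± 140 to 1070 ± 192 CPM, a log2 fold change of -0.98 (SE 0.123, 95% interval -1.24 to -0.72, adjusted p = 5.44e-05).

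LAMB1 (ENSG00000091136; GRCh38 chromosome 7, 107923799 to 108003255, minus strand) encodes a beta chain of many other laminins. Its level was 43.6, 51.7 and 67.9 CPM in controls 1 to 3 and 36.3, 54.0 and 25.7 CPM in knockdowns 1 to 3. Knockdown 2 lay above controls 1 and 2, so the groups overlapped. The log2 fold change of -0.49 (SE 0.252, 95% interval -1.06 to 0.07) was not called, with an adjusted p of 0.259. Leaving out knockdown 2 gave -0.84 with an adjusted p of 0.00781 by the same test. Leaving out knockdown 3 gave -0.27 with an adjusted p of 0.461. With all 6 libraries and no count filter LAMB1 was called at -0.50 (adjusted p = 0.0158). Of its exon bases, 3.58% are shared with the opposite-strand genes DLD and AC005046.1.

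LAMC1 (ENSG00000135862; GRCh38 chromosome 1, 183023460 to 183145592, plus strand) encodes the gamma chain of nearly all laminins outside the hemidesmosomal one. It gave 117, 143 and 165 CPM in controls 1 to 3 and 73.0, 88.9 and 57.1 CPM in knockdowns 1 to 3. The highest knockdown library, knockdown 2, was below the lowest control library, control 1. LAMC1 fell to 51.6% of control, from 141 ± 23.8 to 73.0 ± 15.9 CPM, a log2 fold change of -0.95 (SE 0.156, 95% interval -1.29 to -0.62, adjusted p = 7.94e-04).

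Among the genes of the hemidesmosome itself, COL17A1 (ENSG00000065618; GRCh38 chromosome 10, 104031286 to 104085957, minus strand) was the one called. It encodes a transmembrane collagen, also known as the bullous pemphigoid antigen BP180, whose ectodomain binds laminin. The 3 controls gave 238, 252 and 207 CPM and knockdowns 1 to 3 gave 164, 139.5 and 132 CPM. No knockdown library reached the lowest control, control 3. Expression fell to 62.5% of control, from 232 ± 23.3 to 145 ± 16.3 CPM, a log2 fold change of -0.68 (SE 0.113, 95% interval -0.92 to -0.44, adjusted p = 7.18e-04).

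ITGA6 (ENSG00000091409; GRCh38 chromosome 2, 172427354 to 172506282, plus strand) encodes the alpha subunit of the hemidesmosomal integrin. It gave 16.7, 20.5 and 27.5 CPM in controls 1 to 3 and 13.3, 18.6 and 9.75 CPM in knockdowns 1 to 3. Knockdown 2 exceeded control 1, and the other knockdown libraries were below all controls. The log2 fold change was -0.64 (SE 0.232, 95% interval -1.13 to -0.14), close to that of COL17A1, and was not called at an adjusted p of 0.0874. Without knockdown 2 it was -0.94 with an adjusted p of 0.00938. Without control 3 it was -0.43 with an adjusted p of 0.357. DESeq2 on all 6 libraries gave -0.65 with an adjusted p of 0.0382. Its exon bases shared with opposite-strand genes, ITGA6-AS1 among them, came to 5.37%.

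ITGB4 (ENSG00000132470; GRCh38 chromosome 17, 75721328 to 75757818, plus strand) encodes the beta subunit with the long cytoplasmic tail that plectin binds. Its level was 2086, 1999 and 1922 CPM in controls 1 to 3 and 2064, 1367 and 1595 CPM in knockdowns 1 to 3. Knockdown 1 stood at the control level while knockdowns 2 and 3 were below it. The log2 fold change of -0.26 (SE 0.129, 95% interval -0.53 to 0.02) was not called, with an adjusted p of 0.225. Without knockdown 1 it was -0.44 with an adjusted p of 0.0049. Without knockdown 2 it was -0.16 with an adjusted p of 0.427.

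PLEC (ENSG00000178209; GRCh38 chromosome 8, 143915147 to 143976734, minus strand) encodes plectin, a very large linker of keratin filaments to hemidesmosomes. It gave 3695, 3795 and 2928 CPM in controls 1 to 3 and 3242, 2435 and 2743 CPM in knockdowns 1 to 3. Knockdown 1 was above control 3, so the groups overlapped. The log2 fold change was -0.31 (SE 0.125, 95% interval -0.57 to -0.04) and was not called, with an adjusted p of 0.126. Leaving out knockdown 1 or control 3 gave -0.43 in each case, with adjusted p values of 0.0179 and 0.0406. Leaving out knockdown 2 gave -0.25 with an adjusted p of 0.235.

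**Figure D2:**
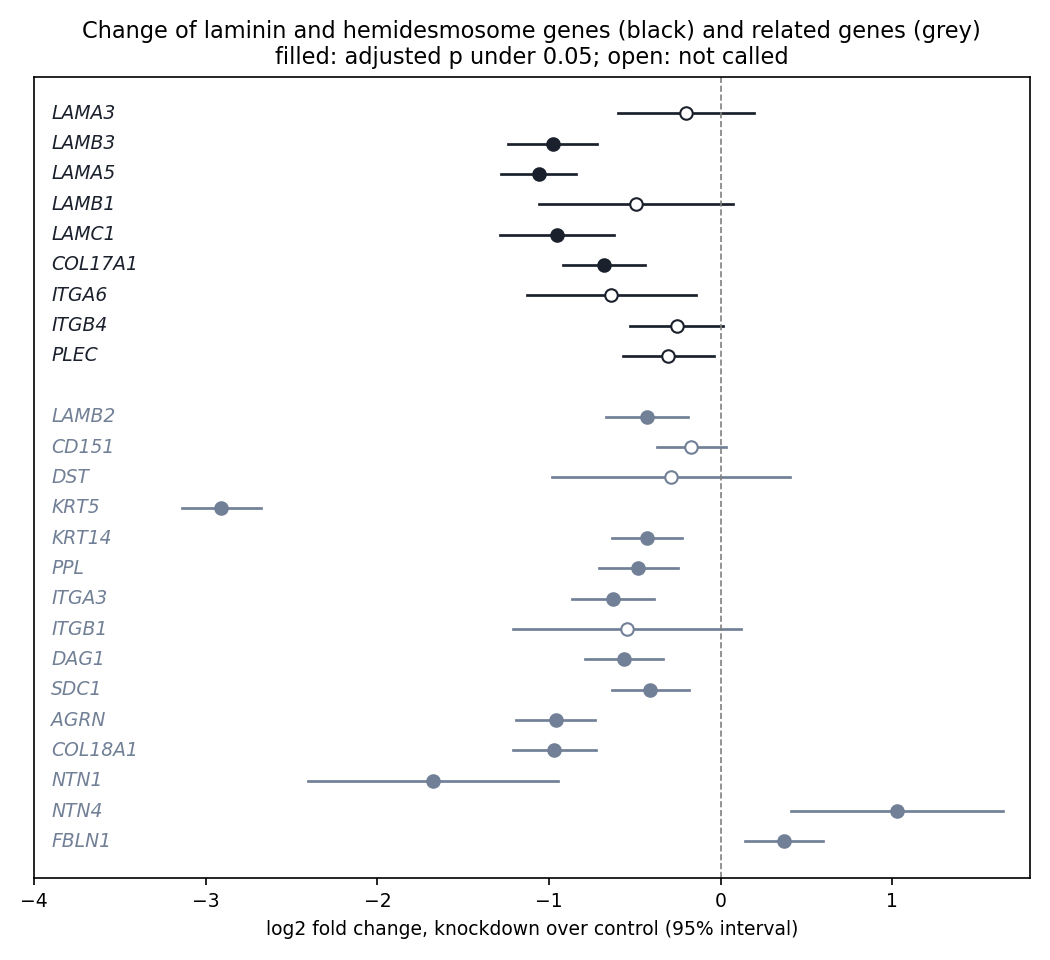
Log2 fold change of knockdown over control with its 95% interval for the 9 genes (black) and for genes named from the lists of their partners (grey). Filled points passed an adjusted p of 0.05 and open points did not. LAMA5 at -1.06, LAMB3 at -0.98 and LAMC1 at -0.95 lie to the left of COL17A1 at -0.68, and the intervals of LAMA3, LAMB1 and ITGB4 cross 0.

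Levels were compared between genes per length, as TPM from the counts and the deposited gene lengths. In control libraries LAMB3 led with 1397 ± 87.2 TPM, rank 104 of the 14649 tested genes. ITGB4 followed with 911 ± 29.2 TPM, then PLEC with 629 ± 82.7 TPM and LAMA5 with 370.4 ± 20.4 TPM. COL17A1 held 102 ± 9.87 TPM and LAMC1 51.6 ± 9.13 TPM. The remaining genes came last in the order of the 9. They were ITGA6 with 9.94 ± 2.63 TPM (rank 5906 of the tested genes), LAMB1 with 9.01 ± 2.13 TPM (rank 6121) and LAMA3 with 4.65 ± 0.466 TPM (rank 7596). ITGA6 and LAMB1 overlapped in the control libraries, and every other pair of neighbours in this order was apart. After knockdown LAMB3 (732 ± 134 TPM) and ITGB4 (788 ± 170.1 TPM) overlapped, and so did ITGA6, LAMB1 and LAMA3. The order of the low genes depends on the length used: LAMB1 has a deposited length of 18592 bases and a longest coding transcript of 5766 bases, and LAMA3 one of 14488 and 10661 bases.

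The chains of one trimer were thus far from equal in counted transcript level. Counted levels of all tested genes with a coding transcript also differed by GC content of that transcript. Their median control TPM was 0.987 in quintile 1, the lowest GC content, and 31.2 in quintile 5. LAMB3 falls in quintile 4 and LAMA3 in quintile 3, ITGB4 and LAMA5 in quintile 5 and ITGA6 in quintile 2. What part GC content has in the levels, ratios and shares given here was not tested. Within each library LAMB3 exceeded LAMA3 by a TPM ratio of 343, 297 and 268 in controls 1 to 3 and of 217, 116 and 221 in knockdowns 1 to 3. All knockdown ratios were below all control ratios, a log2 difference of -0.76. The exact two-sided permutation test gave p = 0.1, the smallest that 3 against 3 libraries allow, and 0.2 after adjustment over the 4 ratios tested, so this difference did not pass. The ITGB4 to ITGA6 ratio was 124, 96.6 and 69.0 in controls and 154, 72.6 and 162 in knockdowns, which overlapped (exact permutation p = 0.5). LAMA5 made up 98.8 ± 0.174% of the summed LAMA3 and LAMA5 TPM in controls and 97.7 ± 0.748% in knockdowns (exact permutation p = 0.1, adjusted 0.2). LAMB1 made up 0.647 ± 0.189% of summed LAMB1 and LAMB3 TPM in controls and 0.932 ± 0.467% in knockdowns (exact permutation p = 0.4, adjusted 0.5). The size of this share rests on the deposited length of LAMB1, which is far above that of its longest coding transcript, and the test on the log2 ratio does not depend on length.

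Summed over all chains of its class, alpha chain transcripts went from 376 ± 20.1 TPM in control to 188 ± 8.64 TPM in knockdown libraries. Beta chain transcripts went from 1550 ± 92.2 to 849 ± 149 TPM. In both classes the range of the knockdown libraries lay below that of the controls. No test was run on these sums. LAMA5 held 98.6 ± 0.173% of alpha chain TPM in controls and LAMB3 90.1 ± 0.320% of beta chain TPM. LAMB2, a beta chain of the non-hemidesmosomal laminins, had a share of beta chain TPM of 9.26 ± 0.148% in controls and 13.0 ± 0.378% in knockdowns.

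**Figure D3:**
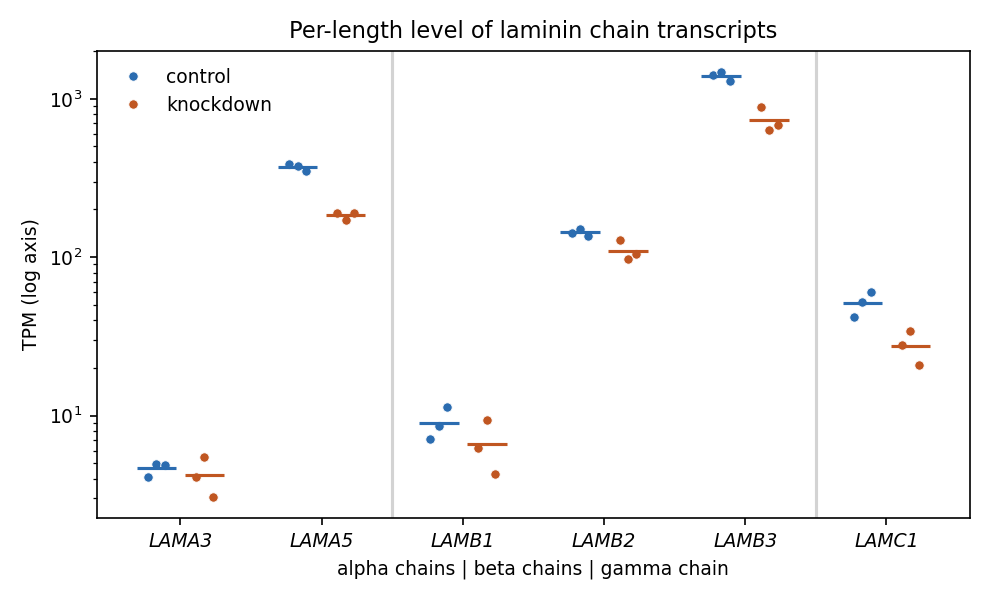
TPM (log axis) of 6 laminin chain transcripts, by chain class, with control libraries in blue, knockdown libraries in orange and bars for the group means (n = 3). LAMB3 is the highest beta chain in each library and LAMA5 lies far above LAMA3, while the groups of LAMA3 and LAMB1 overlap.

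The other laminin chains were read from a list of 7 genes, of which 4 had enough reads to be tested. Of these 4, 2 fell and none rose (median log2 fold change -0.57), beside 6.66% of all tested genes called lower. LAMB2 gave 322, 335 and 303 CPM in controls 1 to 3 and 274, 207 and 232 CPM in knockdowns 1 to 3. All knockdown libraries were below all controls. LAMB2 fell from 320 ± 16.0 to 238 ± 33.9 CPM (log2 fold change -0.43, adjusted p = 0.0174), and lost its call without control 2 (adjusted p = 0.0504) or knockdown 3 (adjusted p = 0.0709).

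Of 9 other hemidesmosome and plakin genes, all tested, 3 fell and none rose (median -0.27), beside 6.66% of all tested genes called lower. KRT5, the type II keratin of basal cells whose filaments plectin anchors, fell from 3584 ± 233 to 477 ± 32.9 CPM, a log2 fold change of -2.91 (adjusted p = 1.05e-10). Its partner KRT14 fell by 0.43 on the log2 scale (adjusted p = 0.00688). KRT14 has near-identical copies in the genome, and how reads shared between copies were counted is not given in the labels. The plakin PPL, a cornified envelope and desmosome protein, fell by 0.48 (adjusted p = 0.00704). DST, which encodes the hemidesmosomal plakin BP230, held only 2.86 ± 0.214 CPM in controls and was not called (log2 fold change -0.29, adjusted p = 0.641). The longest coding transcript of DST has a GC content of 41.3%, and what part this has in its low counted level was not tested. CD151, a tetraspanin of hemidesmosomes, was not called either (log2 fold change -0.17, adjusted p = 0.28). Of CD151's exon bases, 7.57% are shared with opposite-strand genes.

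Other laminin receptors were 12 listed genes with 9 tested, of which 3 fell and none rose (median -0.41). The share of all tested genes called lower was 6.66%. ITGA3, the alpha subunit of a laminin-binding integrin outside hemidesmosomes, fell from 2607 ± 82.5 to 1688 ± 246 CPM (log2 fold change -0.63, adjusted p = 0.00124). DAG1, which encodes dystroglycan, fell by 0.56 (adjusted p = 0.00211), and the syndecan SDC1 fell by 0.41 (adjusted p = 0.0155). SDC1 lost its call without control 2 (adjusted p = 0.0617) or knockdown 3 (adjusted p = 0.0778). ITGB1, the beta subunit that pairs with the ITGA3 product, held 6.53, 9.22 and 11.2 CPM in controls 1 to 3 and 3.68, 9.54 and 5.14 CPM in knockdowns 1 to 3. The groups overlapped at knockdown 2 and ITGB1 was not called (log2 fold change -0.55, adjusted p = 0.298). Without knockdown 2 it was -1.04 with an adjusted p of 0.0238. Without knockdown 1 it was -0.30 (adjusted p = 0.616) and without control 3 it was -0.36 (adjusted p = 0.632), neither called. The GC content of the longest coding transcript was 40.0% for ITGB1 and 60.9% for ITGA3. What part this has in the low counted level of ITGB1 was not tested.

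Other basement membrane genes were 24 listed and 15 tested, of which 8 fell and 2 rose (median -0.40). The share of all tested genes called lower was 6.66%, and 12.9% were called in either direction. AGRN, which encodes the laminin-binding proteoglycan agrin, fell from 1842 ± 141 to 946 ± 102 CPM (log2 fold change -0.96, adjusted p = 1.92e-05). COL18A1, a basement membrane collagen, fell by 0.97 (adjusted p = 2.62e-05). NTN1, a laminin-related netrin, fell by 1.68 (adjusted p = 0.00358) from a low level of 3.86 ± 0.908 CPM. NTN4, a netrin that binds laminin gamma chains, rose by 1.03 (adjusted p = 0.0272), from 2.99 ± 0.489 to 6.10 ± 1.79 CPM. FBLN1, a fibulin, rose by 0.37 (adjusted p = 0.0312). NTN4 lost its call without control 1, control 2, knockdown 1 or knockdown 2, with 0.77 and an adjusted p of 0.128 without knockdown 2. FBLN1 lost its call without any 1 library other than knockdown 2, with 0.29 and an adjusted p of 0.155 without control 2.

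Over all 7 lists, which hold 100 genes, 80 were tested, 22 fell and 4 rose, with a median log2 fold change of -0.13. Among all tested genes 6.66% were called lower and 12.9% in either direction.

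Within the groups the 9 genes split by library in a way that the treatment does not define. For LAMA3, LAMB1, LAMC1 and ITGA6, control 1 was the lowest control, knockdown 2 the highest knockdown and knockdown 3 the lowest. For the other 5 genes control 3 was the lowest control, and knockdown 2 was the lowest knockdown in all but COL17A1. Correlations of the deviations from the group means, over 6 libraries, ran from 0.892 to 0.992 between the first 4 genes. They ran more widely between the other 5, from 0.359 to 0.965. Between the first 4 and the other 5 they ran from -0.983 to 0.109. These correlations are a description only, and the split was drawn after the values were seen. The first 4 genes have the lowest GC content of their longest coding transcripts (42.9% to 50.7%) and the other 5 the highest (55.9% to 67.0%). In controls 1 and 3 and knockdowns 2 and 3, medians of tested genes of like GC content were smaller in size than the deviations of the 4 genes. In knockdown 1 they were larger: the 4 genes deviated by -0.03 to 0.02, and the medians were 0.05 in quintile 3 and -0.08 in quintile 2. In control 2 ITGA6 deviated by -0.04, against a median of 0.06. A median does not give the spread of single genes, and what part GC content has in the split was not tested. LAMA3, LAMB1 and LAMC1 fall in quintile 3 of GC content, where the median deviation was -0.02 for control 1, -0.04 for knockdown 2 and 0.02 for knockdown 3. ITGA6 falls in quintile 2, with medians of -0.16 for control 1, 0.13 for knockdown 2 and -0.02 for knockdown 3. The 4 genes themselves deviated by 0.31 to 0.55 in knockdown 2 and by -0.52 to -0.33 in knockdown 3. In quintile 1, the lowest GC content, which holds none of the 9 genes, the medians were -0.26 for control 1 and 0.29 for knockdown 2. Genes called lower made up 4.29% of quintile 2, 9.94% of quintile 3, 13.0% of quintile 4 and 9.90% of quintile 5. What part this between-library pattern has in the missing calls of LAMB1 and ITGA6 was not tested.

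**Figure D4:**
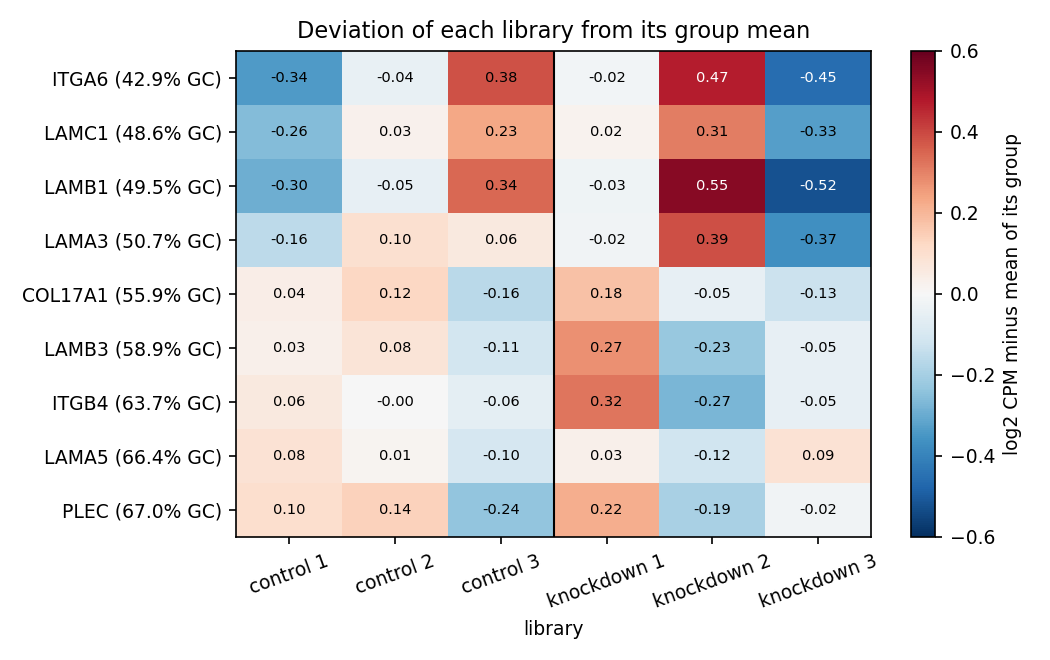
Log2 CPM of each library minus the mean of its group for the 9 genes, ordered by GC content (rows) and by library (columns), with red above and blue below the group mean. Knockdown 2 is above its group mean in the 4 genes of lowest GC content and below it in the other 5.

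For each gene the transcript with the most similar profile was sought among 6540 genes of at least 10 CPM, by Pearson correlation of log2 CPM over the 6 libraries. The profiles of genes that differ between the groups share that difference, and no p was computed. LAMB3 was nearest to EMC1 (r = 0.9995), with 472 genes above 0.95, and LAMA5 to HNRNPF (r = 0.998), with 447 genes above 0.95. COL17A1 was nearest to CDC25A (r = 0.996), with 257 genes above 0.95, and LAMC1 to FSTL1 (r = 0.987), with 36. Among the genes that were not called, LAMB1 was nearest to UGGT1 (r = 0.996), ITGA6 to RRP1B (r = 0.990), ITGB4 to MTA2 (r = 0.994), PLEC to LSS (r = 0.994) and LAMA3 to TGOLN2 (r = 0.960). Genes above 0.95 numbered 115 for ITGB4, 91 for PLEC, 22 for ITGA6, 20 for LAMB1 and 8 for LAMA3.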

How the data were processed

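Poly(A) RNA of 3 control and 3 knockdown libraries was made into strand-marked (dUTP) libraries, per the labels' protocols. Raw counts of reads per gene, as the authors deposited them, were analysed, and a deposited gene length (another column, in bases) served for TPM. Per the submitters' processing notes, cutadapt 2.8, HISAT2 2.1.0, SAMtools 1.10, featureCounts 2.0.0 and hg38 were involved. Not given in the sources used here: annotation release, strand setting and handling of multi-mapping reads, so shares of exon bases on the opposite strand are given. The number of unused sample columns was 0.

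Genes passing filterByExpr (minimum count 10, minimum total 15) entered edgeR 4.0.16 (R 4.3.3) with TMM scaling, robust dispersions and a quasi-likelihood test of knockdown over control on all 6 libraries, Benjamini-Hochberg adjustment over all 14649 tested genes, called at an adjusted p under 0.05. SEs derive from the quasi-F statistic. Ratios within libraries used exact permutation tests. Replicates of a group differed by more than sampling noise (chi-square per degree of freedom 14.6 to 36.2). The floor of 3 reads covers counting error only. Alternatives were RLE or no scaling, no or a stricter count filter (5 CPM in 3 libraries), the replicate block, each library left out, DESeq2 1.42.0 and limma-voom (limma 3.58.1).

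The members and gene lists were chosen with earlier results of these data known. JUN and FOSL1 were added beside JUNB as AP-1 subunits of the same list. By rule, named genes were the members, IGF2BP1 and up to 3 called genes per list and direction. The rule also named the direct partners DST, CD151, ITGA3, ITGB1, KRT5 and KRT14, and the nearest profile of each member. A result that this rule names is not reported here. Gene coordinates are from GENCODE 29 (GRCh38), and promoter windows from RefSeq (GRCh38.p14).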

Additional observations from a re-analysis of the deposited data

How the results depend on the processing

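All 9 genes kept a negative log2 fold change in all 13 alternatives, and LAMB3, LAMA5, LAMC1 and COL17A1 kept their calls in each. The other calls were less settled. With no count filter, which tests 25291 genes, LAMB1 (-0.50, adjusted p = 0.0158), ITGA6 (-0.64, 0.00769), ITGB4 (-0.28, 0.0483) and PLEC (-0.32, 0.0100) were also called by edgeR, so 8 of the 9 were called lower; the cause was not tested. DESeq2 called ITGA6 (-0.65). When 1 library was left out, values ran from -0.84 to -0.27 for LAMB1, -0.94 to -0.43 for ITGA6, -0.44 to -0.16 for ITGB4 and -0.43 to -0.25 for PLEC. The number called higher then ran from 1 to 4 of the pathway lists and from 529 to 828 of all tested genes, with fewer samples in each fit. With no scaling factor 63.2% of calls were higher, against 48.5% with TMM.

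With the replicate block PLEC was called (-0.31, adjusted p = 0.0474), and 5 of the 9 genes were called lower. It changed no other call of the 9. The labels give only a number: deviations of same-numbered libraries correlated at 0.268, 0.131 and -0.107, and control 3 correlated best with knockdown 2, so the numbers were not taken to pair the libraries. Of the 9 genes, ITGA6 had the library with the fewest reads (241); whether depth limits its call was not tested.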

Other observations

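Among 12 tested processing protease genes of a list of 15, 2 fell and 1 rose (median log2 fold change -0.13). The share of all tested genes called in either direction was 12.9%. MMP14, a membrane-bound metalloprotease that cleaves laminin chains, fell from 1000.3 ± 57.0 to 640.1 ± 72.0 CPM (log2 fold change -0.64, edgeR adjusted p = 6.89e-04). BMP1, a procollagen and laminin processing protease, fell by 0.54 (adjusted p = 0.00740). Its relative TLL2 rose by 0.92 (adjusted p = 0.00524) from 7.74 ± 0.630 CPM.

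Of 15 tested genes of hemidesmosome signalling and anchorage, 2 fell and none rose (median 0.07). Among all tested genes 12.9% were called in either direction. The 2 that fell were the receptor kinase genes MST1R (log2 fold change -0.62, edgeR adjusted p = 0.00280) and ERBB2 (-0.42, adjusted p = 0.0226). ERBB2 lost its call without knockdown 3 (adjusted p = 0.0814).

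Of 16 tested genes of factors known to act on epithelial laminin genes, 2 fell and 1 rose (median -0.00), beside 12.9% of all tested genes called. JUNB, an AP-1 subunit, fell from 570.0 ± 13.0 to 259 ± 29.8 CPM (log2 fold change -1.14, edgeR adjusted p = 2.72e-06). The other AP-1 subunits of the list, JUN (-0.06, edgeR adjusted p = 0.816) and FOSL1 (0.06, edgeR adjusted p = 0.795), were not called. GRHL3, a grainyhead factor, fell by 0.65 (adjusted p = 0.0246). KLF4, a factor of squamous differentiation, rose by 0.84 (adjusted p = 0.0473), although knockdown 3 (6.72 CPM) was below control 1 (7.27 CPM). GRHL3 lost its call without control 2 (adjusted p = 0.115), control 3 (0.0552) or knockdown 1 (0.0759). KLF4 lost its call with limma-voom (adjusted p = 0.0783) and without control 2 (0.205), control 3 (0.149), knockdown 1 (0.143) or knockdown 2 (0.168).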
